A study of Zea mays with 16 samples.

Results

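The genes described here are the 49 maize genes, of 38179 listed, whose deposited description opens with V-type (14 genes), Vacuolar (19 genes) or Plasma (16 genes). They were picked as candidates for the proton pumps of the vacuolar and plasma membranes. A gene opening with Pyrophosphate-energized, the usual name of the proton-pumping pyrophosphatase, was also sought, and 0 were found. Only 7656 of the 38179 listed genes carry a description word, and genes without one could not be picked. The 49 genes are therefore not a complete family, and the 0 does not show that a pyrophosphatase gene is absent. A normalised count of at least 10 in at least 4 libraries was required, and all 49 genes met it. For these genes the description holds 1 word alone, so the label of proton pumps could not be checked gene by gene. The word V-type usually opens the name of a V-type proton ATPase subunit, whereas Vacuolar and Plasma also open the names of many proteins that are no pumps. The genes are therefore called here by their word, and no subunit or enzyme is assigned to any identifier.

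Stomatal pores open when guard cells take up potassium, anions and water and swell. Plasma membrane proton ATPases export protons and set up the voltage and pH gradient that drives this uptake. V-type ATPases, rotary machines of a membrane sector and a cytosolic sector with many subunits, and the vacuolar pyrophosphatase acidify the vacuole, which stores most of the ions. In grasses each guard cell is flanked by a subsidiary cell that exchanges ions and water with it during stomatal movement.

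Guard cells and subsidiary cells were cut by laser from peeled epidermis of leaf 3 of seedlings of the maize inbred B104, aged 2 weeks. Plants had 16 h of light at 25 °C and 8 h of dark at 22 °C, and strips were frozen 2 h after lights on (day) or 2 h after lights off (night), so light, temperature and time of day changed together. Both cell types were taken at both times, which made 4 groups of 4 libraries, 16 in all, out of 4 independent collections. All groups shared genotype and growth conditions, and each sample pooled 2 tubes of about 1500 cells. The sample titles of subsidiary cells by night carry a day-like word, but the treatment label and the name of each library give night. In such pooled samples, fewer cells of a type and less RNA per cell cannot be told apart. Normalised counts are gene counts divided by 1 size factor per library, so a higher value of 1 gene than of another can come from its length, which was not used. Values are given in replicate order 1 to 4.

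Libraries held 16.6 to 28.9 M reads (median 22.2 M). Guard cells by night replicate 4 and subsidiary cells by day replicate 1 stood apart, with mean Spearman correlations to the other libraries of 0.642 and 0.669, against 0.707 to 0.758 elsewhere. The first words name no gene that defines guard or subsidiary cells, so the cell type labels were not checked against such genes. The 55 genes named Photosystem or Chlorophyll took 0.313 to 0.614% of reads in guard cells by day and 0.0276 to 0.159% in guard cells by night. They took 0.0829 to 0.321% in subsidiary cells by day and 0.0803 to 0.1003% in subsidiary cells by night. The 5 genes opening with NADP-dependent or Ribulose took, in that order, 0.0383 to 0.131%, 0.0084 to 0.0630%, 0.0056 to 0.0475% and 0.0090 to 0.0188%. Such first words do not tell which enzyme a gene encodes. The 27 genes named Carbonic, Phosphoenolpyruvate or Pyruvate took 0.0613 to 0.108% in guard cells by day and 0.0508 to 0.0651% in subsidiary cells by day. Their medians there were 0.0824% and 0.0591%. The 3 vascular names took 0.0089% in guard cells by night replicate 4 and at most 0.00261% elsewhere. The Photosystem and Chlorophyll share thus had its highest median in guard cells by day (0.476%, against 0.215% in subsidiary cells by day), where several genes below were also highest. The other lists had their highest median there too, and the part of any list in those results was not tested.

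The 49 genes differed widely between libraries. Their mean normalised count over 16 libraries ran from 6.24 to 2208, with 40 genes at 100 or more, and 6 genes had no read in at least 1 library. Among the 43 genes with reads everywhere, the highest library exceeded the lowest by 3.74-fold to 284-fold (median 23.0-fold). Over the 16 libraries the Spearman correlation between pairs of the 49 genes had a median of 0.01, against 0 for pairs of all genes tested. Within a word the medians were 0.04 for V-type, 0.05 for Vacuolar and 0.09 for Plasma, as a description over libraries that share preparation and groups. The genes therefore did not follow 1 common profile, as the plot of every gene in every library shows.

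**Figure D1:**
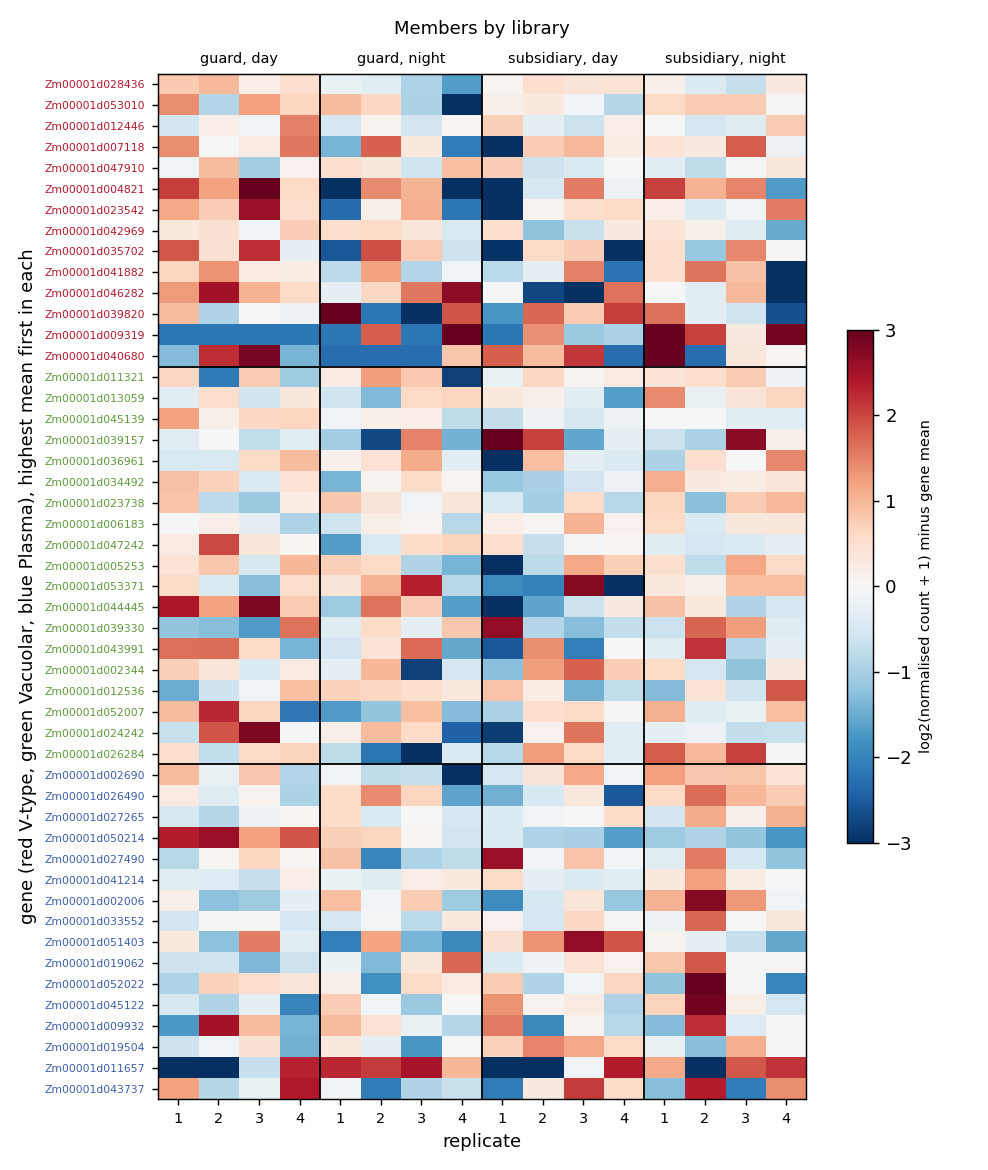
All 49 genes (vertical, ordered by word and level) in the 16 libraries (horizontal, by group and replicate); colour is log2(normalised count + 1) minus the gene's mean. Red marks are frequent among V-type genes in guard cells by day, and among Plasma genes in subsidiary cells by night replicate 2.

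One gene separated the cell types clearly. The Plasma gene Zm00001d050214 was higher in guard cells than in subsidiary cells, and higher in guard cells by day than by night. Its normalised counts were 3259, 3829, 1509 and 2358 in guard cells by day (2739 ± 1019, SD, n = 4), and 1038, 1003, 659.6 and 426 in guard cells by night (782 ± 292). Daytime subsidiary cells had 471, 333, 322 and 202 (332 ± 109.9), and those by night 299, 340.2, 285 and 190.1 (279 ± 63.5). Every guard cell library by day lay above all 12 others. By night the guard cell libraries still lay above the subsidiary cell libraries.

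By day the log2 difference of Zm00001d050214, guard minus subsidiary, was 3.02 ± 0.39 (SE; limma-trend, adjusted p = 0.000956). It was the 1 gene of the 49 that passed (2.04%), against 1.34% of all 37759 genes tested. Passing means a Benjamini-Hochberg adjusted p under 0.05 over all those genes. Most genes tested carry no description word, and they were not matched to the 49 by level. Here and below, shares of all genes are thus set beside the 49 as a plain background. Averaged over day and night the difference was 2.22 ± 0.28 (limma, adjusted p = 0.000300), again the 1 gene passing, against 2.40% of all genes. By night it was 1.43 ± 0.39 (limma, adjusted p = 0.194), and 0 of 49 passed, against 0.0291% of all genes. At an unadjusted p under 0.05 the night comparison held 3 of the 49 genes (6.12%), against 8.57% of all genes.

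Between day and night in guard cells, Zm00001d050214 differed by 1.81 ± 0.39 on the log2 scale (limma, adjusted p = 0.0303). It was the 1 of 49 genes passing, against 0.866% of all genes. That call was lost in 8 of 26 alternatives, with an adjusted p of up to 0.117 without both libraries that stood apart. Leaving out guard cells by day replicate 1, 2 or 4, or guard cells by night replicate 3 or 4, also ended it (limma, adjusted p up to 0.108). The cell type difference itself was 1.59 ± 0.55 larger by day than by night, which did not pass (limma, adjusted p = 0.627). In the authors' deposited table, whose log2 fold changes run subsidiary over guard and night over day, the gene passed by day (-2.93, adjusted p = 8.77e-11). It also passed there by night (-1.26, adjusted p = 0.0238) and between night and day in guard cells (-1.63, adjusted p = 0.000988).

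**Figure D2:**
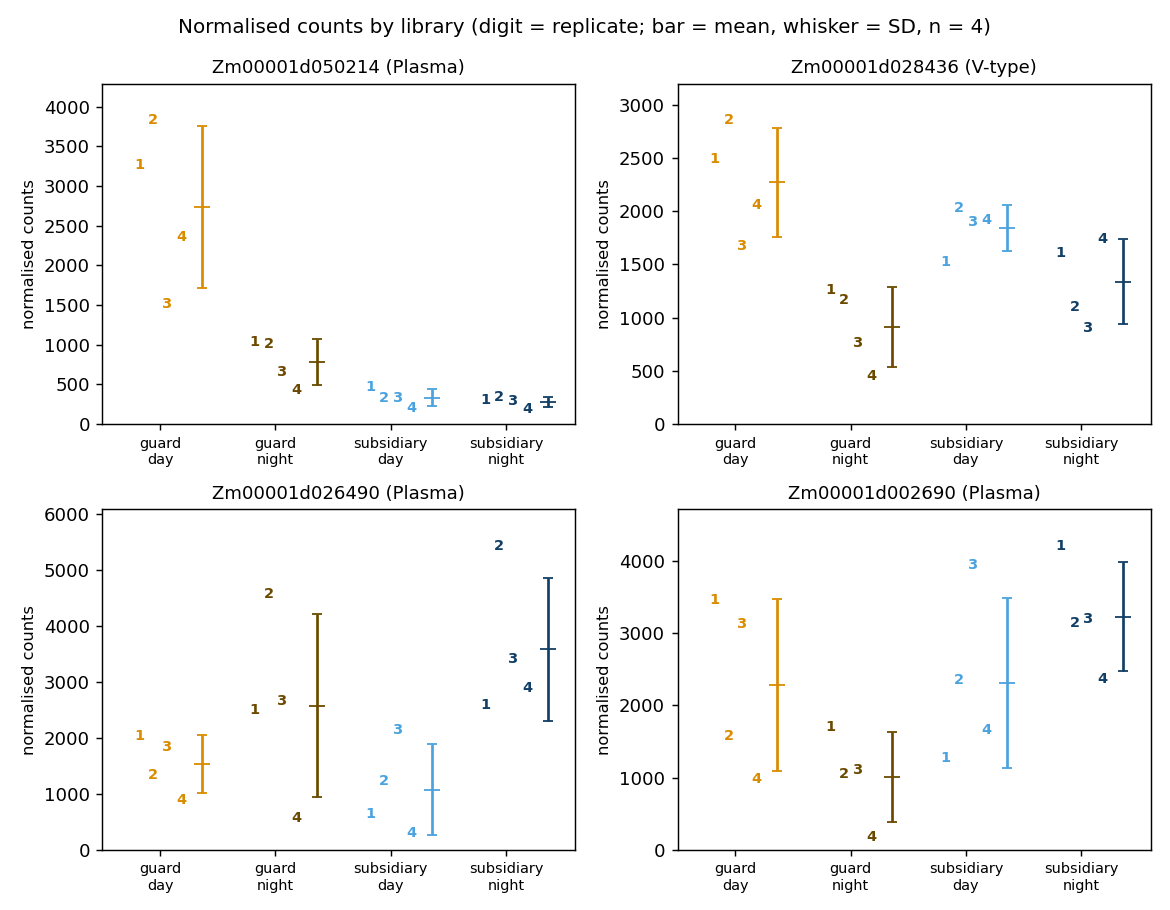
Normalised counts (vertical axis, linear) of 4 genes by group (horizontal axis); digits are replicates, the bar is the mean and the whisker the SD (n = 4). Zm00001d050214 lies at 1509 to 3829 in guard cells by day and at 202 to 471 in subsidiary cells by day; Zm00001d028436 does not overlap between day and night in guard cells.

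The V-type genes were, as a set of values, highest in guard cells by day. Summed over the 14 genes, normalised counts were 8698, 7133, 9079 and 7932 in guard cells by day (8210.6 ± 863, SD, n = 4), and 4551, 6778, 4006 and 2852 in guard cells by night (4547 ± 1648). Daytime subsidiary cells had 4614, 5200.2, 5722 and 5003 (5135 ± 461), and those by night 6238, 4801, 5957 and 5476 (5618 ± 629). All 4 sums in guard cells by day lay above the other 12. As a share of all reads the sums were 0.0281 to 0.0455% in daytime guard cells, 0.0170 to 0.0342% in night-time guard cells, 0.0204 to 0.0246% in daytime subsidiary cells and 0.0248 to 0.0351% in night-time subsidiary cells. On that scale guard cells by day overlapped with both night groups but not with subsidiary cells by day. The Photosystem and Chlorophyll share was also highest in this group by its median (0.476% of reads), and its part here was not tested.

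The mean was highest in guard cells by day for 10 of the 14 V-type genes (71.4%), against 27.8% of all genes tested. Between guard and subsidiary cells by day, 11 of 14 had a positive log2 difference, with a median of 0.68, against a median of 0 over all genes. By night 4 of 14 were positive, with a median of -0.47. Between day and night, 12 of 14 were positive in guard cells (median 0.96) and 6 of 14 in subsidiary cells (median -0.43). The daytime cell type median stayed between 0.48 and 0.87 in all alternatives, and the day minus night median in guard cells between 0.63 and 1.39. By limma 0 V-type genes passed in either comparison, and 3 of 14 (21.4%) had an unadjusted p under 0.05 in each, against 12.4% of all genes between the cell types and 10.1% between day and night. The 3 between the cell types were Zm00001d035702, Zm00001d023542 and Zm00001d046282, with lowest daytime subsidiary cell values of 13.2, 12.5 and 0. At that threshold edgeR and DESeq2 held 0 V-type genes between the cell types by day. Between day and night in guard cells they held 2 and 3, of which 1 each was lower by day. Shares of all genes at that threshold are not given for edgeR and DESeq2, so these counts are a description alone. By limma the medians thus describe a shared sign and not single changed genes. DESeq2 called 2 of the 14 between day and night in guard cells, 1 higher and 1 lower by day, against 2.90% of all genes.

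**Figure D3:**
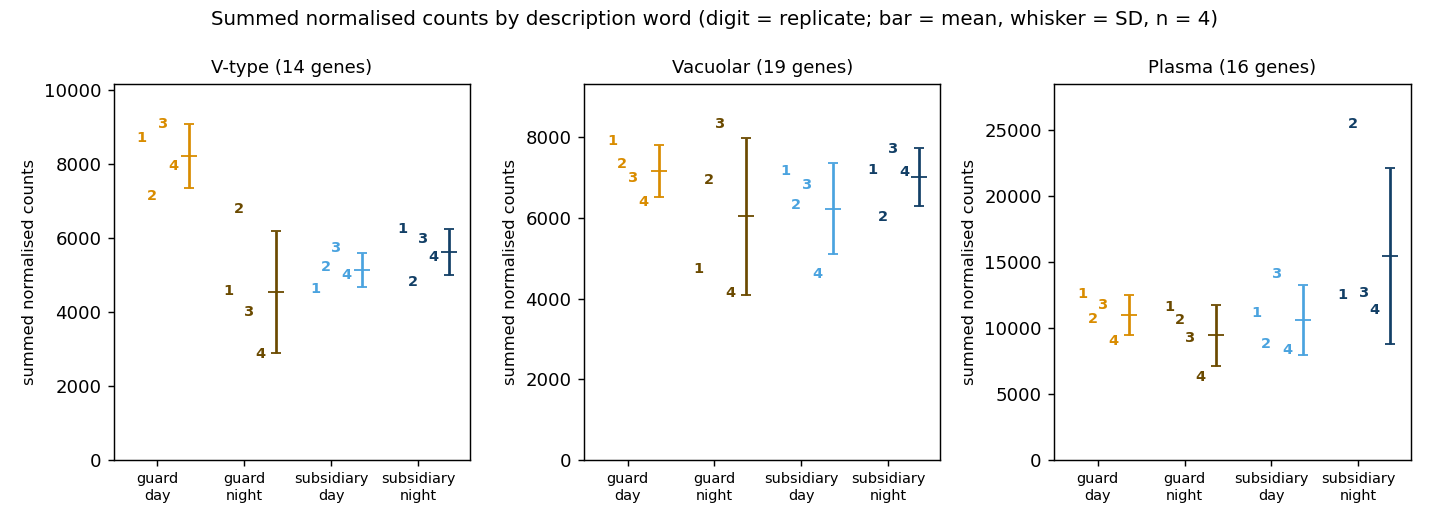
Summed normalised counts (vertical axis, linear) of the V-type, Vacuolar and Plasma genes by group (horizontal axis); digits are replicates, the bar is the mean and the whisker the SD (n = 4). V-type sums in guard cells by day, 7133 to 9079, lie above all others, and the Plasma sum reaches 25447 in subsidiary cells by night replicate 2.

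Zm00001d028436 took 15.2 to 40.0% of the V-type counts in a library, a share of reads that is not corrected for gene length. It had 2493, 2854, 1669 and 2062 normalised counts in guard cells by day (2269 ± 515), and 1259, 1169, 757 and 449.5 in guard cells by night (909 ± 376). In subsidiary cells it had 1524, 2031, 1893 and 1917 by day (1842 ± 219.8), and 1604, 1095, 903 and 1742 by night (1336 ± 401). Day and night did not overlap in guard cells, whereas in subsidiary cells they did.

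Averaged over both cell types, Zm00001d028436 was higher by day by 0.95 ± 0.25 on the log2 scale (limma, adjusted p = 0.0428). It was the 1 of 49 genes passing in that comparison, against 2.62% of all genes. The call was lost in 13 of 25 alternatives, among them edgeR, quantile normalization and the replicate number as a block. It was also lost on removal of any of 10 single libraries (limma, adjusted p up to 0.102). These were guard cells by day replicates 1, 2 and 4, guard cells by night replicate 3, subsidiary cells by day replicates 2, 3 and 4, and subsidiary cells by night replicates 1, 2 and 3. In guard cells alone the log2 difference was 1.402 ± 0.35 (limma, adjusted p = 0.0691). The authors' deposited table lists -1.15 for night over day in guard cells (adjusted p = 0.0163). Without this gene the other 13 V-type genes summed to 4279 to 7411 normalised counts in daytime guard cells, 2402 to 5609 in night-time guard cells, 3086 to 3829 in daytime subsidiary cells and 3706 to 5054 in night-time subsidiary cells. Guard cells by day then still lay above subsidiary cells by day but overlapped with both night groups.

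Zm00001d004821, also V-type, varied widely between libraries. Guard cells by day had 954, 522, 1987 and 343 normalised counts and guard cells by night 11.4, 597, 452 and 8.58. Subsidiary cells by day had 9.06, 160.0, 651 and 202, and those by night 930.2, 463, 619 and 68.4. The groups overlapped throughout, and the day minus night difference of 3.34 ± 1.33 in guard cells did not pass (limma, adjusted p = 0.373). Another V-type gene, Zm00001d053010, had 1839, 378, 1625 and 1084 in guard cells by day and 1333, 1063, 359 and 25.7 in guard cells by night. It had 766, 854, 659 and 382 in daytime subsidiary cells, and 1054, 1182, 1184 and 712 in night-time subsidiary cells. Guard cells by night replicate 4, one of the libraries that stood apart, was the lowest of the 16, and the groups overlapped.

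Zm00001d012446 was the most even of these V-type genes. It had 401, 696, 551 and 1719.9 in guard cells by day and 419, 645, 408 and 629.7 in guard cells by night. Subsidiary cells had 993, 502, 387 and 693 by day, and 602, 418, 467 and 1029 by night. All 4 groups overlapped. The scarce V-type gene Zm00001d046282 had 65.4, 158, 56.1 and 40.2 in guard cells by day and 22.1, 41.2, 81.6 and 175 in guard cells by night. Subsidiary cells had 26.1, 3.16, 0 and 84.7 by day, and 26.4, 21.1, 53.2 and 0 by night. Averaged over day and night it differed by 2.51 ± 0.96 between guard and subsidiary cells, which did not pass (limma, adjusted p = 0.224).

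The other 9 V-type genes ranged from 0 to 1526 normalised counts. Among them, and singled out after its values were seen, Zm00001d009319 had 0 in all 4 guard cell libraries by day, and 0, 14.5, 0 and 106 by night. Subsidiary cells had 0, 10.5, 1.08 and 1.32 by day, and 83.2, 17.6, 4.36 and 31.5 by night. It was at 0 where 10 of the 14 V-type genes had their highest mean, and it passed between night and day in guard cells in the authors' deposited table (0.17, adjusted p = 0.0311). On recovered reads DESeq2 gave -7.33 ± 2.16 for day minus night (adjusted p = 0.0304). A deposited log2 fold change can thus be far smaller in size than a fitted one, and why was not tested. The guard cell values of Zm00001d009319 by night rested on 2 libraries, 1 of which stood apart, and limma did not call it.

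The medians of the Vacuolar genes had the same signs as those of the V-type genes in the same 4 comparisons. Of 19 genes 13 were positive between guard and subsidiary cells by day (median 0.39) and 7 by night (median -0.32), and 13 were positive between day and night in guard cells (median 0.57) but 5 in subsidiary cells (median -0.55). Their summed normalised counts overlapped between all groups, with 6388 to 7915 in daytime guard cells, 4142 to 8330 in night-time guard cells, 4617 to 7157 in daytime subsidiary cells and 6025 to 7708 in night-time subsidiary cells. By limma 0 Vacuolar genes passed in any comparison, with 3 of 19 (15.8%) at an unadjusted p under 0.05 between the cell types by day, against 12.4% of all genes.

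By day, 2 Vacuolar genes did not overlap between the cell types, both higher in guard cells, against 7.80% of all genes (4.27% higher). Zm00001d044445 had 872, 378, 1138 and 275 in guard cells by day and 76.2, 502, 269.5 and 50.6 in guard cells by night. Subsidiary cells had 5.66, 53.7, 103 and 195 by day, and 300.2, 198, 86.3 and 115 by night. The lowest guard cell value by day, 275, lay above the highest subsidiary value by day, 195, and below the highest subsidiary value by night. The daytime log2 difference was 3.44 ± 0.90 (limma, adjusted p = 0.0658), and the excess over the night difference was 3.48 ± 1.28 (limma, adjusted p = 0.636).

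Zm00001d045139 had 1318, 649, 873 and 891 in guard cells by day (933 ± 279.5), against 348, 509, 406 and 513 in subsidiary cells by day (444 ± 81.2). By night guard cells had 529.8, 641, 658 and 336, against 565, 568, 455 and 459.6 in subsidiary cells. The cell types were apart by day and overlapped by night. The daytime log2 difference was 1.04 ± 0.33 (limma, adjusted p = 0.140). In the authors' deposited table both genes passed by day, with log2 fold changes of subsidiary over guard of -2.38 for Zm00001d044445 (adjusted p = 0.0137) and -0.92 for Zm00001d045139 (adjusted p = 0.0294). These 2 genes also had the highest Spearman correlation of all pairs of the 49 over the 16 libraries (0.86), as a description over libraries that share groups.

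Zm00001d034492 had 681, 601, 275 and 504 in guard cells by day and 141, 403, 546 and 393 by night. Subsidiary cells had 168, 188, 248 and 331 by day, and 796, 451, 435 and 483 by night. Day and night did not overlap in subsidiary cells, with day lower, while guard cells overlapped. The cell type difference was 1.77 ± 0.63 larger by day than by night (limma, adjusted p = 0.630). Zm00001d011321 had 1042, 155, 1149 and 319.9 in guard cells by day and 794, 1611, 1173 and 96.1 by night. Subsidiary cells had 583, 1044, 732 and 798 by day, and 904, 962, 1147 and 603 by night, inside the wider guard cell range.

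Zm00001d013059 likewise overlapped between all groups. It had 436, 805, 368 and 700.0 in daytime guard cells, 367, 219, 836 and 866 in night-time guard cells, 695, 617, 447 and 176 in daytime subsidiary cells, and 1473, 475, 724 and 868 in night-time subsidiary cells. The scarce Vacuolar gene Zm00001d026284 had 26.7, 10.96, 28.9 and 30.6 in guard cells by day and 10.7, 3.34, 1.30 and 13.7 by night. Subsidiary cells had 10.2, 46.3, 29.1 and 14.6 by day, and 68.4, 37.8, 81.1 and 18.5 by night. By night all guard cell libraries lay below all subsidiary cell libraries, with a log2 difference of -2.82 ± 0.92 (limma, adjusted p = 0.294). The other 13 Vacuolar genes ranged from 12.5 to 2673 normalised counts, and none of the 19 was at 0 in any library.

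The Plasma genes differed from the other 2 words in their daytime cell type median, which was negative. The mean was highest in subsidiary cells by night for 9 of 16 (56.2%), against 23.5% of all genes tested, and highest in guard cells by day for 3. Without subsidiary cells by night replicate 2, a setting chosen after seeing the data, the count was 5 of 16 (31.2%), against 22.7% of all genes. Between guard and subsidiary cells, 6 of 16 were positive by day (median -0.17) and 2 of 16 by night (median -0.55). Between day and night, 7 of 16 were positive in guard cells (median -0.01) and 6 of 16 in subsidiary cells (median -0.42).

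Much of the Plasma pattern at night came with 1 library. Subsidiary cells by night replicate 2 was the highest of the 16 libraries for 8 of the 16 Plasma genes, and for 6.25% of all genes tested. The summed Plasma counts were 8967 to 12546 in daytime guard cells, 6289 to 11552 in night-time guard cells and 8336 to 14076 in daytime subsidiary cells. In subsidiary cells by night they were 12479, 25447, 12603 and 11336. Without replicate 2 the day minus night median in subsidiary cells was 0.05, with 9 of 16 positive, and the cell type median by night was -0.24.

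Within the Plasma genes, Zm00001d002690 had 3456, 1572, 3128 and 979.7 in guard cells by day and 1698, 1056, 1109 and 178 by night. Subsidiary cells had 1272, 2347, 3948 and 1665 by day, and 4210.2, 3144, 3193 and 2369 by night. By night all guard cell libraries lay below all subsidiary cell libraries, with a log2 difference of -2.03 ± 0.57 (limma, adjusted p = 0.204). By day the cell types overlapped.

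Zm00001d026490 and Zm00001d002006 had lower means by day than by night in both cell types. Both were highest in subsidiary cells by night replicate 2. By day Zm00001d002006 averaged 327 in guard cells and 313 in subsidiary cells. Zm00001d026490 had 632, 1237, 2138 and 298 in subsidiary cells by day against 2595, 5435, 3414 and 2888 by night, and these did not overlap. In guard cells it had 2042, 1341, 1841 and 891 by day against 2498, 4571, 2664 and 574 by night, which did overlap. Its day minus night log2 difference in subsidiary cells was -2.03 ± 0.59 (limma, adjusted p = 0.122), and averaged over both cell types -1.26 ± 0.42 (limma, adjusted p = 0.140). The subsidiary cell difference passed in 3 of 26 alternatives, among them the replicate number as a block (limma, adjusted p = 0.0360). With that block the averaged difference passed as well (limma, adjusted p = 0.0446).

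Zm00001d002006 had 122, 329, 589 and 209 in subsidiary cells by day against 952, 3085, 1132 and 429 by night. Guard cells had 513, 194, 219 and 382 by day against 857, 436, 781 and 218 by night, and both pairs of groups overlapped. The log2 difference in subsidiary cells was -2.04 ± 0.60 (limma, adjusted p = 0.128). The authors' deposited table calls it, with 1.79 for night over day (adjusted p = 0.0185). Across the 16 libraries the profiles of Zm00001d026490 and Zm00001d002006 had a Spearman correlation of 0.81, again as a description.

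Zm00001d051403 was 1 of the 6 Plasma genes with a positive day minus night difference in subsidiary cells. It had 426, 798, 1979.5 and 1149 there by day against 334, 254, 192 and 107 by night, with no overlap. Guard cells had 385, 131, 908 and 249 by day against 74.7, 708, 118 and 81.5 by night, with overlap. Its day minus night log2 difference in subsidiary cells was 2.19 ± 0.70 (limma, adjusted p = 0.173), and 1.65 ± 0.49 averaged over both cell types (limma, adjusted p = 0.0943). The authors' deposited table gives -1.75 for night over day in subsidiary cells (adjusted p = 0.0458).

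Zm00001d027265 had 971, 749, 1221 and 1423 in guard cells by day and 1989.8, 979, 1336 and 939 by night. Subsidiary cells had 1022, 1272, 1334 and 1994 by day, and 922, 2917, 1503 and 2845 by night, and all groups overlapped. Of the other 10 Plasma genes, 2 were lower in guard cells by day without overlap, against 3.53% of all genes, and were singled out after their values were seen. Zm00001d019504 had 23.8, 34.2, 51.5 and 13.1 in guard cells by day against 61.2, 105, 85.1 and 56.9 in subsidiary cells by day. Zm00001d019062 had 260.5, 266, 155 and 255 against 298, 362, 542 and 435. Neither difference passed the limma test.

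Counted over all 49 genes, 5 did not overlap between guard and subsidiary cells by day (3 higher and 2 lower), against 7.80% of all genes (4.27% higher and 3.53% lower). By night there were 3 (1 higher and 2 lower), against 5.81% (2.53% higher and 3.27% lower). Between day and night 2 did not overlap in guard cells, both higher, against 5.71% of all genes (3.49% higher and 2.22% lower). In subsidiary cells 3 did not (1 higher and 2 lower), against 8.84% (4.25% higher and 4.59% lower). At an unadjusted p under 0.05 the cell type comparison by day held 8 of 49 genes (16.3%), against 12.4% of all genes, and day against night held 7 in guard cells (14.3%, against 10.1%) and 5 in subsidiary cells (10.2%, against 11.2%). In subsidiary cells 0 of 49 passed with adjustment by limma, against 1.22% of all genes.

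The other programs called 0 to 6 of the 49 genes in a comparison. On recovered reads, edgeR called 1 of 49 between the cell types by day (0.908% of all genes), 0 by night (0.00530%) and 1 averaged (2.07%). Day against night gave 1 call in guard cells (0.519%), 0 in subsidiary cells (0.840%) and 0 averaged (2.36%). DESeq2 called 3 between the cell types by day (4.34% of all genes), 1 by night (1.62%) and 1 averaged (5.53%). For day against night it called 3 in guard cells (2.90%), 2 in subsidiary cells (3.58%) and 6 averaged (5.74%). The authors' deposited table holds 3 of 47 genes by day (4.53% of all genes with an adjusted p), 1 of 49 by night (1.65%), 3 of 47 in guard cells (3.01%) and 2 of 49 in subsidiary cells (3.62%). As shares of the 49 genes, 1 call is 2.04%, 3 are 6.12% and 6 are 12.2%, so the count farthest above its background, in percentage points, was that of DESeq2 for averaged day against night.

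The sign of the cell type difference was the same by day and by night for 26 of the 49 genes, while 20 were positive by day and negative by night and 3 the reverse. This split was not counted over all genes. Guard minus subsidiary was positive for 30 of 49 genes by day (median 0.25) and for 13 of 49 by night (median -0.44), where 49.8% of all genes were positive. The day difference minus the night difference was positive for 36 of 49 (median 0.64), against 51.0% of all genes. This covered 12 of 14 V-type genes (median 1.04), 14 of 19 Vacuolar genes (median 0.85) and 10 of 16 Plasma genes (median 0.25). Without guard cells by night replicate 4 and subsidiary cells by day replicate 1, which stood apart, 13 of 14 V-type genes (median 1.11), 13 of 19 Vacuolar genes (median 0.52) and 12 of 16 Plasma genes (median 0.57) were positive. Without subsidiary cells by night replicate 2 the Plasma median was -0.16. Of the 49 genes 0 passed the test of this difference by limma (0% of all genes), edgeR (0.00265%) or DESeq2 (0.395%). By limma 8 of 49 had an unadjusted p under 0.05 (16.3%), all 8 positive, against 6.71% of all genes in either direction and 4.03% positive.

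**Figure D4:**
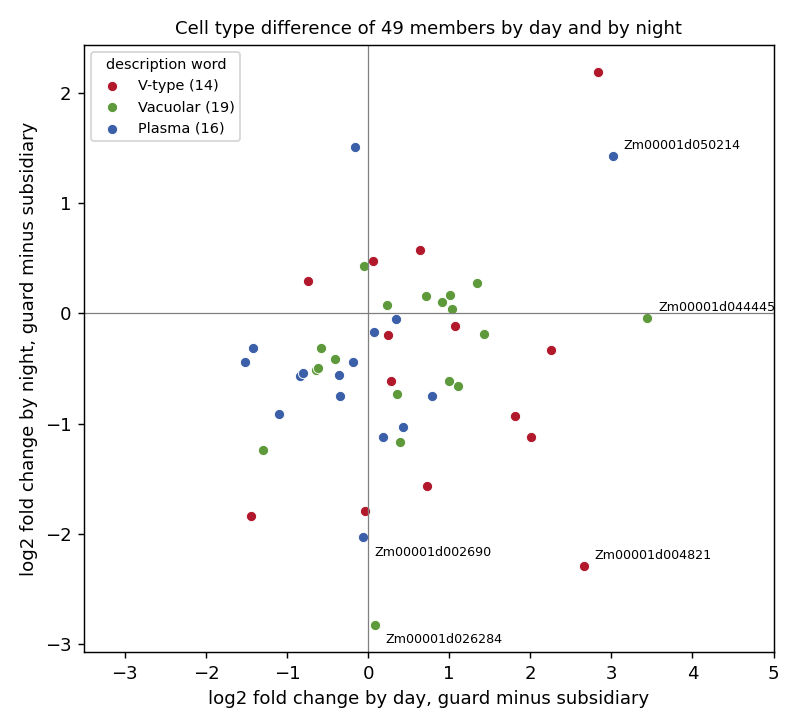
Log2 difference, guard minus subsidiary cells, by day (horizontal axis) and by night (vertical axis) for each of the 49 genes, coloured by word. Zm00001d050214 is positive at both times (3.02 by day and 1.43 by night), and most other points lie below 0 by night.

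Other genes of ion, water and sugar transport, and the 14-3-3 genes, were counted by their description word. Of these 125 genes, limma called 1 higher and 2 lower in guard than in subsidiary cells by day (1.34% of all genes passed), and 0 by night (0.0291%). Between day and night it called 5 in guard cells, all higher by day (0.866% of all genes), and 2 in subsidiary cells, both higher by day (1.22%). Averaged over day and night, 3 were higher and 4 lower in guard cells (2.40% of all genes). Averaged over the cell types, 7 were higher and 2 lower by day (2.62%). These words cover 31 Potassium, 21 Aquaporin, 22 Bidirectional, 15 Calcium-transporting, 9 Chloride, 8 Sucrose, 5 14-3-3, 5 Cation, 3 Nitrate, 3 Sugar and 3 Sodium/hydrogen genes.

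Proteins named 14-3-3 bind and activate plasma membrane proton ATPases, and 0 of the 5 genes passed in any comparison by limma. Their median day minus night log2 difference was 0.95 in guard cells, against 0.07 in subsidiary cells. Their median cell type difference was 0.27 by day and 0.16 by night. All Chloride genes also stayed short of the threshold, with a median of -0.07 between guard and subsidiary cells by day. The calls by day were potassium genes. Zm00001d003861 averaged 3271 ± 999 normalised counts in guard cells by day against 251 ± 88.2 in subsidiary cells by day (log2 difference 3.71 ± 0.54; limma, adjusted p = 0.00175). Zm00001d044717 averaged 7260 ± 4388 against 49160 ± 28290 (-2.77 ± 0.42; limma, adjusted p = 0.00219). Zm00001d046679 averaged 349.7 ± 53.9 against 1159 ± 356 (-1.68 ± 0.41; limma, adjusted p = 0.0462).

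Calcium-transporting Zm00001d002396 was higher in guard cells and lower by day. It averaged 1121 ± 174 in daytime guard cells, 2125 ± 803 in night-time guard cells, 608 ± 52.0 in daytime subsidiary cells and 1150 ± 146 in night-time subsidiary cells. The averaged log2 differences were 0.84 ± 0.21 for cell type (limma, adjusted p = 0.0428) and -0.88 ± 0.21 for day minus night (limma, adjusted p = 0.0301).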

How the data were processed

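RNA of 16 laser-cut samples was amplified (SMART-Seq v4) and sequenced from Nextera XT libraries, per the labels' protocols; these kits mark neither the strand nor single molecules. Per the file headers, the deposited values are normalised counts (a signal): whole read counts of each gene over a size factor of the library. Each value was a whole multiple of 1 read within 0.01 (100%), so whole reads were recovered. The authors' deposited log2 fold changes (a score) and adjusted p-values come from DESeq2 1.40.2 with B73 RefGen_v4, per the submitters' processing notes; the aligner is not given in the sources used here. Since the plants are B104, reads of diverged genes can be lost, and gene copies or overlapping genes can share reads.

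Genes with at least 10 in at least 4 of 16 libraries were tested, 37759 of 38179. Limma-trend (limma 3.58.1, R 4.3.3) was fitted to log2(normalised count + 1) with 4 group means over all libraries. Fold changes are differences on that scale and understate the change of low genes. P-values measure the spread between the 4 libraries within a group, estimated jointly over the 4 groups. Guard minus subsidiary was tested by day, by night and averaged; day minus night was tested within guard cells, within subsidiary cells and averaged; the interaction was tested as well. Alternatives were edgeR 4.0.16 and DESeq2 1.42.0 on recovered reads, another pseudocount (10), no filter, quantile and upper-quartile scaling, quality weights, a replicate block, fewer groups or libraries. The procedure was also run on simulated data, with large changes set in guard cells by day in genes that were not scarce. Only guard against subsidiary cells by day was scored, so that run does not bear on scarce genes or the other comparisons.

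Values per library are given for genes passing the limma test, the 3 of smallest p per comparison and the 3 of highest mean per word, 17 in all. Genes and lists were chosen with earlier results of these data known. In 62 lines shifted columns were moved back. No sequences are shown, since 0 identifiers matched the reference table.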

Additional observations from a re-analysis of the deposited data

Results flagged for a closer look

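Of 68 sets of 4 libraries (17 genes in 4 groups), 1 held a library far from the others by Dixon's test, where chance gives about 1 in 20, or 3.4. Vacuolar gene Zm00001d026284 had 10.96 normalised counts in guard cells by day replicate 2, against 26.7 to 30.6 in the other 3 libraries; the gap was 0.866 of the range (critical value 0.829). The gene is scarce, and the cause was not tested.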

How the results depend on the processing

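Over 26 alternatives, Zm00001d050214 stayed called between guard and subsidiary cells by day in 26 of 26 (log2 2.80 to 3.28) and averaged over day and night in 25 of 25 (2.12 to 2.45). Of 537 values for 21 gene results, 497 kept direction and side of the threshold, 21 lost and 19 gained a call, and 0 turned direction. Counts of called genes among the 49 moved as follows, and the causes were not tested. Apart from edgeR and DESeq2, the share of all genes called under each alternative is not given. Whether a move was particular to the 49 genes is therefore not shown. Guard against subsidiary cells by day gave 1; pseudocount 10 gave 2, DESeq2 3, and leaving out 1 library 1 to 2, the 2 without guard cells by night replicate 4. By night, 0 became 1 with DESeq2. Day against night in guard cells gave 1, but 0 with only the groups compared, 0 with quantile normalization, 0 without both libraries that stood apart, 3 with DESeq2 and 0 to 1 leaving out 1 library. In subsidiary cells 0 became 2 with quality weights, 2 with DESeq2 and 0 to 1 leaving out 1 library, the 1 without guard cells by night replicate 4 or subsidiary cells by day replicate 3. Day against night averaged over cell types gave 1, but 0 with quantile normalization, 0 with edgeR, 2 with quality weights, 6 with DESeq2, 2 without both libraries that stood apart and 0 to 3 leaving out 1 library, the 3 without guard cells by night replicate 4. The averaged cell type count (1) and the interaction count (0) did not move. With the replicate number as a block, the count was 1 in subsidiary cells (Zm00001d026490, limma adjusted p = 0.0360) and 2 for the averaged day against night. These 2 were Zm00001d050214 (0.0282) and Zm00001d026490 (0.0446), while Zm00001d028436 was no longer called (0.0578). Over 24 same-numbered pairs, correlations of deviations ran from -0.06 to 0.08, against -0.09 to 0.12 over 72 pairs of different number. Such correlations cannot tell whether libraries of equal number share a collection. Averages and the interaction need all groups, so the fit on fewer groups was not run there. Upper-quartile scaling moved the median of all genes between day and night in guard cells to -0.12. Reads without molecular identifiers are not independent molecules, so the recovered read numbers understate the error of scarce genes.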
